A study of Drosophila melanogaster with 12 samples.

Results

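Two-exon circular RNAs are closed RNA loops in which the end of one exon has been joined back to the start of the exon before it. Circles were taken as two-exon where the exon numbers in their deposited name differ by 1, as in tai 3-4, which runs from exon 3 to exon 4 of a transcript of tai. Of 729 circles listed in larval carcasses of Drosophila melanogaster, 246 were two-exon, 227 were single-exon and 256 held 3 or more exons. The two-exon circles came from 215 of 510 host genes. RNA was taken from stationary larvae of the third instar whose internal organs had been dissected away. One genotype was Nxt1 in strain yw, described by the submitters as trans-heterozygous for Nxt1, and the other was WT in strain w1118. The alleles are not named in the sources used here. The question put by the study was whether Nxt1 affects circular RNA expression. There were 3 RNase R libraries (R) and 3 mock libraries (M) of each genotype. Circles were read from the R libraries and the linear mRNA and pre-mRNA of the hosts from the M libraries.

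Circular RNAs arise by back-splicing, in which a downstream splice donor joins an upstream splice acceptor. Having no free end, they withstand the exonuclease RNase R, which degrades most linear RNA, and many are long-lived in cells. Back-splicing competes with linear splicing of the same pre-mRNA, and pairing of inverted repeats in the flanking introns or binding of proteins such as Muscleblind can favour it. Internal exons are used, since the first exon of a transcript has no splice acceptor and the last has no donor. Nxt1 works as the small partner of Sbr, the receptor that carries mRNA through nuclear pores, and in flies the helicase encoded by Hel25E is known to take part in the export of long circles.

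Each listed circle carries the back-splice reads of 2 of the 3 R libraries of its genotype, and a circle absent from a list has no value there rather than a value of 0. The R libraries held 48182700, 71326500 and 78946600 reads in Nxt1 and 69690700, 78830800 and 92273200 reads in WT, and are named below by their total (lowest, middle or highest) within the genotype. The M libraries held 19830526 to 32868851 reads assigned to mRNA in Nxt1 and 30193498 to 32305628 in WT. Nxt1 mRNA had 6.03, 6.57 and 5.72 FPKM (fragments scaled to gene length and library) in Nxt1 larvae, against 10.7, 8.31 and 9.91 FPKM in WT larvae. Its log2 fold, Nxt1 over WT on FPKM + 1 as for all mRNA below, was -0.58 (SE 0.106, limma adjusted p = 0.0164, n = 3 each, with a threshold of 0.05 throughout), and the call was lost without Nxt1 replicate 1, Nxt1 replicate 3 or WT replicate 1 (0.0576 to 0.0645). Strain and genotype cannot be told apart, since every Nxt1 library was yw and every WT library w1118. The mRNA of markers of some tissues also moved with genotype. The 12 muscle markers summed to 74551 to 90642 CPM (recovered mRNA reads scaled to the library) in Nxt1 and 38323 to 76823 in WT, with 7 of 12 rising and none falling by limma, against 12.5% rising and 9.10% falling among all genes (4 rising with libraries scaled to equal totals, against 5.92%). The 10 epidermal markers summed to 2386 to 2933 CPM in Nxt1 and 2820 to 3637 in WT. Fat body markers summed to 6348 to 9263 CPM in Nxt1 and 4728 to 5498 in WT (4 of 9 tested rising and 1 falling). Neuronal markers summed to 64 to 76 in Nxt1 and 111 to 116 in WT (3 of 10 falling). Imaginal disc markers were at 543 to 635 CPM in Nxt1 and 745 to 940.3 in WT (3 of 8 tested falling). Tracheal markers were at 964 to 1155 CPM in Nxt1 and 1185 to 1570.2 in WT (1 of 6 falling). Those of glia overlapped, at 788 to 961 CPM in Nxt1 and 899.8 to 1414 in WT (1 of 6 falling). Salivary gland markers summed to 257 to 604 CPM in Nxt1 and 146 to 221 in WT, with 5 of 7 tested rising under either scaling and a median log2 fold of 3.02. Hemocyte markers summed to 1130.1 to 1576 CPM in Nxt1 and 866 to 1181 in WT (4 rising and 2 falling of 10), and midgut markers to 15.2 to 119 CPM in Nxt1 and 5.79 to 68.2 in WT (1 of 4 tested rising). No marker was at 0 in every library, and the part of tissue makeup in the circle results was not tested. In whole carcasses, fewer cells of a type and less RNA per cell cannot be told apart. Nothing in the labels says that replicates came from separate larvae, so p-values measure the spread between libraries, which may be technical. For circles, that spread covers only the 2 listed libraries of a genotype. How these were chosen was not given, and whether the choice affected the spread, calls or overlap was not tested.

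The two-exon circles began mostly at the first internal exons of their hosts. Exon 2 was the first exon of 104 two-exon circles (42.3%), exon 3 of 59 (24.0%), exon 4 of 28 (11.4%) and exon 5 of 20 (8.13%). The most distal one began at exon 17. The share beginning at exon 2 was 59.0% for single-exon circles and 37.5% for circles of 3 or more exons. Among the reads of two-exon circles, those beginning at exon 2 made up 30.2%, 34.1% and 44.6% in the Nxt1 libraries and 25.7%, 31.6% and 39.6% in the WT libraries. These shares overlapped between the genotypes, and within each genotype the library with the highest total had the highest share. Exon numbers belong to the transcript that the deposited name gives, so a number can stand for different exons in different transcripts of a gene.

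**Figure D1:**
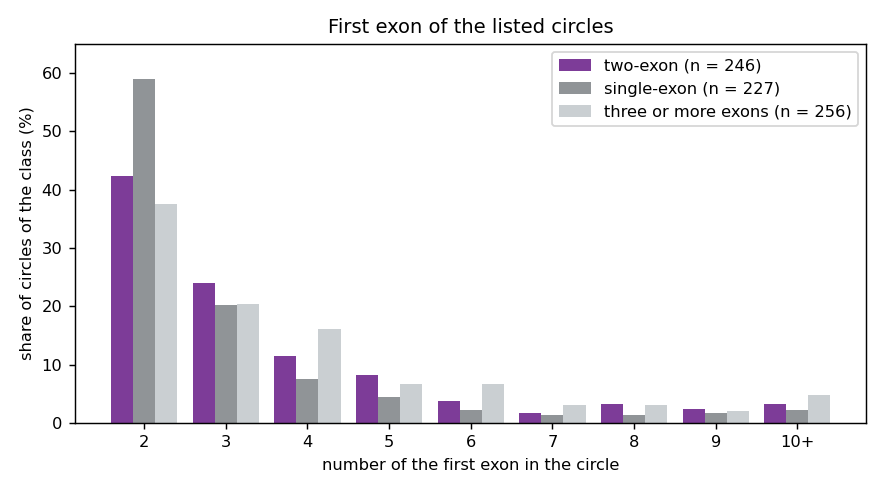
Share of the circles of each class (vertical axis, percent) by the number of their first exon (horizontal axis, with exons from 10 on pooled), for 246 two-exon, 227 single-exon and 256 longer circles. Exon 2 was the commonest first exon in all 3 classes, at 42.3% of two-exon circles, 59.0% of single-exon circles and 37.5% of longer ones.

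Most hosts gave only one two-exon circle. Of the 215 hosts, 187 had 1, 25 had 2 and 3 had more, namely Dbp80, Pde6 and tn. For 122 two-exon circles (49.6%) no other circle of the host was listed. Of the 124 with other circles, 52 were the most abundant of their host. Only 11 shared their first exon and 24 their last exon with another listed circle of the same transcript, 34 sharing either. A single-exon circle of the first exon was listed for 4 and of the last exon for 8 two-exon circles. At the level of the gene, 39 hosts also gave a single-exon circle and 58 a circle of 3 or more exons.

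The median scaled level of two-exon circles, in back-splice reads per 1e+09 library reads, was 319 over 171 circles in Nxt1 and 325 over 209 circles in WT. The quartiles were 132 and 619 in Nxt1 and 119 and 618 in WT. Levels of at least 1000 were reached by 28 circles in Nxt1 and 32 in WT, and levels under 100 were held by 32 circles (18.7%) in Nxt1 and 42 (20.1%) in WT. The highest level was 8530.2 in Nxt1 and 14453 in WT, against maxima of 71503 and 80544 among single-exon circles. The 10 most abundant circles of a genotype made up 35.9% of the summed two-exon level in Nxt1 and 34.3% in WT. Single reads spanned 1 to 1169 per library, and the 2 values of a circle differed by a median of 0.92 on the log2 scale in Nxt1 and 0.64 in WT.

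The most abundant two-exon circle was tai 3-4, from the gene of Taiman, a coactivator of the ecdysone receptor. It stood at 10709 and 6351 in Nxt1 libraries and at 14829 and 14076 in WT libraries (log2 fold -0.76, SE 0.302, edgeR adjusted p = 0.134 in the fit of all circles described below). The Nxt1 values lay below the WT values without passing the test. Pde8 3-4, from a cyclic nucleotide phosphodiesterase gene, had scaled levels of 7264 and 6842 in Nxt1 and 6055 and 5527 in WT (log2 fold 0.28, edgeR adjusted p = 0.593). The cact 3-4 circle, from the gene of the IκB-like inhibitor Cactus, had 3321 and 1654 in Nxt1 and 4389 and 3803 in WT (-0.73, edgeR adjusted p = 0.251). The genotypes did not overlap for either circle, with Pde8 3-4 above WT and cact 3-4 below it.

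Dbp80, whose product is a DEAD-box helicase of mRNA export, gave a pair of abundant circles. Dbp80 3-4 had scaled levels of 2802 and 1430 in Nxt1 and 4275 and 2942 in WT (log2 fold -0.78, edgeR adjusted p = 0.240). Dbp80 4-5 had 1847 and 1140 in Nxt1 and 3438 and 3529.9 in WT (-1.23, edgeR adjusted p = 0.0677). Every Nxt1 value was below every WT value for both. Dbp80 10-11 was listed in WT only, at 38.1 and 108. Dbp80 mRNA fell, with a log2 fold of -0.36 (limma adjusted p = 0.0372).

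The remaining 5 of the 10 most abundant circles had positive log2 folds. The transcription factor gene foxo, whose product is restrained by insulin signalling, gave foxo 3-4 at 4026 and 2077 in Nxt1 and 736 and 1937 in WT (log2 fold 1.19, edgeR adjusted p = 0.134). The a 4-5 circle, from the gene of the junctional PDZ protein Arc, had 3964 and 1963 in Nxt1 and 1560.3 and 1191 in WT (1.10, edgeR adjusted p = 0.131). The drn 2-3 circle had 4919 and 3659 in Nxt1 and 2131 and 2353 in WT (0.93, edgeR adjusted p = 0.126). In all of these the Nxt1 values were above the WT values. Mrtf 2-3, from the gene of a coactivator of serum response factor, had 4275 and 2061 in Nxt1 and 2626 and 2195 in WT (0.39, edgeR adjusted p = 0.589). RtGEF 6-7 had 2221 and 2635 in Nxt1 and 2827 and 1972 in WT (0.02, edgeR adjusted p = 0.976). These last values overlapped between the genotypes, and the signs of both changed with 1 library left out (Mrtf 2-3 -0.23 without the lowest Nxt1 library, RtGEF 6-7 -0.11 without the highest Nxt1 and -0.22 without the highest WT library). None of the 10 passed the threshold.

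**Figure D2:**
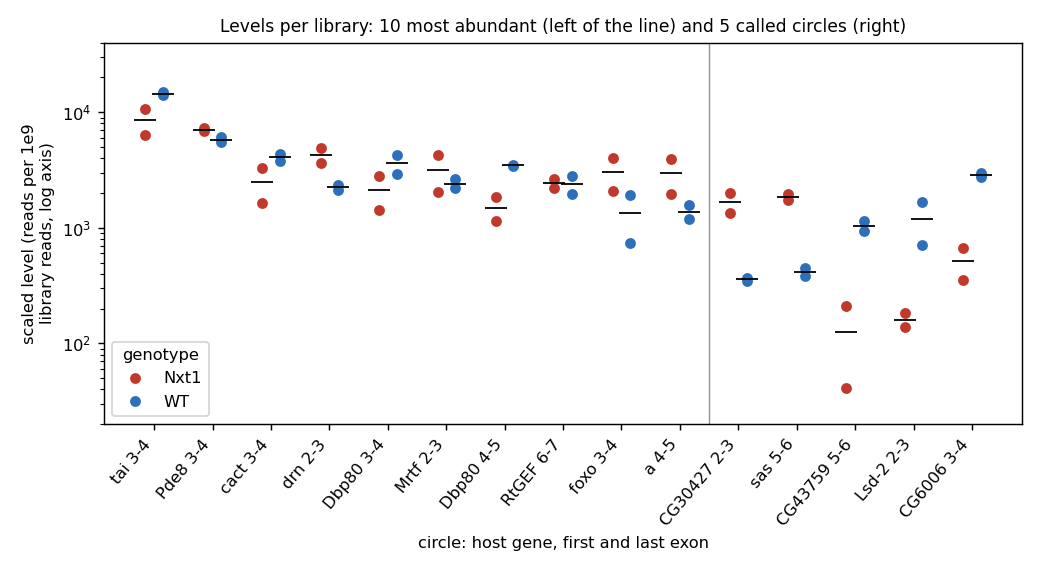
Scaled level per library (vertical log axis, back-splice reads per 1e+09 library reads) of the 10 most abundant two-exon circles and the 5 called circles (horizontal axis), Nxt1 left and WT right within each circle, with 2 library values as points and their mean as a bar. The genotypes overlap for Mrtf 2-3 and RtGEF 6-7, while for sas 5-6 the values are 1972 and 1753 in Nxt1 against 381 and 445 in WT.

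The two-exon share of listed back-splice reads was 23.0% to 26.2% in the 6 R libraries. It was 23.7% (exact binomial interval 23.1% to 24.3%), 26.2% (25.6% to 26.8%) and 23.4% (22.7% to 24.2%) in the Nxt1 libraries, in rising order of their totals. In the WT libraries it was 25.8% (25.3% to 26.3%), 23.0% (22.6% to 23.5%) and 23.0% (22.4% to 23.6%). The intervals are at 95% and cover counting error only. These shares rest on 5291, 4994 and 3090 two-exon reads in Nxt1 and 7215, 7810 and 5001 in WT. The means were 24.4% ± 1.53 in Nxt1 and 24.0% ± 1.62 in WT (SD, n = 3 each), a difference of 0.49 percentage points, or -0.39 without the middle Nxt1 library. The 2-sided exact permutation test gave p = 0.5, and 3 against 3 libraries cannot go below p = 0.1. Single-exon circles held 48.8% ± 8.48 in Nxt1 and 51.2% ± 7.92 in WT, and longer circles 26.7% ± 7.0 in Nxt1 and 24.8% ± 6.84 in WT (SD, n = 3 each, exact permutation p = 0.8 for both). Because each circle is listed with 2 of 3 libraries, a library's share depends on which circles carry a value for it.

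**Figure D3:**
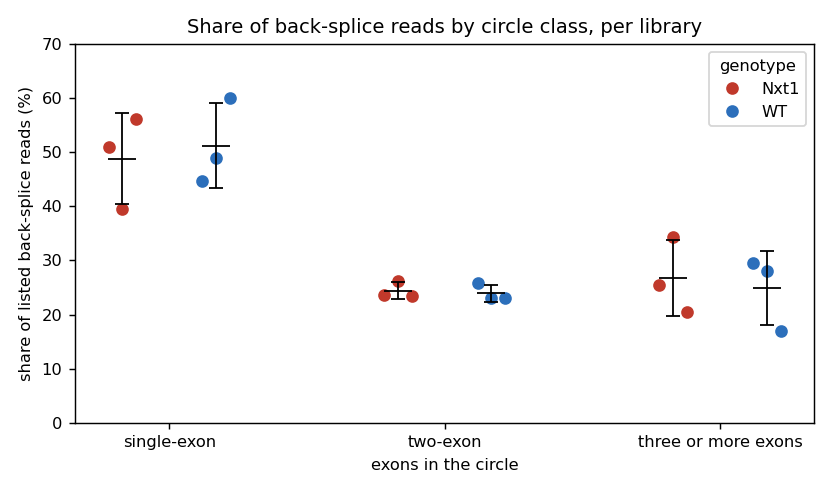
Share of the listed back-splice reads of a library (vertical axis, percent) held by each class of circle (horizontal axis), Nxt1 left and WT right, with a point per library, the mean as a bar and the SD as whiskers (n = 3 each). Two-exon shares lie between 23.0% and 26.2% in all 6 libraries, while the other classes spread more widely.

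Of the 246 two-exon circles, 134 (54.5%) were in both lists, 37 in Nxt1 only and 75 in WT only. Of all 729 circles, 132 were in Nxt1 only and 262 in WT only, so the longer WT list is not particular to two-exon circles. The share in both lists was 46.3% for single-exon circles, 37.5% for circles of 3 or more exons and 46.0% for all 729, which is a description of the lists without a test. Expressed on each list, 78.4% of the 171 Nxt1 circles and 64.1% of the 209 WT circles were in the other list as well. Circles of both lists had a median scaled level of 399.7 in Nxt1 and 491 in WT. Those of 1 list were lower, at a median of 131 for Nxt1 only and 119.6 for WT only. At least 20 reads on average were held by 85 two-exon circles in Nxt1 and 124 in WT.

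To ask which two-exon circles differed between the genotypes, the 335 circles of any size listed in both were fitted together with edgeR's quasi-likelihood test. Of the 134 two-exon circles, 2 rose (CG30427 2-3 and sas 5-6) and 3 fell (CG43759 5-6, Lsd-2 2-3 and CG6006 3-4). These 5 are 3.73% of the two-exon circles, against 6.27% called among all 335, of which 2.69% rose and 3.58% fell. DESeq2 called 7, against 11.3% of all 335. The count was 12 without the middle Nxt1 library and 2 without the middle WT library. Such runs also estimate the spread anew, as described below. The median log2 fold of two-exon circles was -0.24, with quartiles of -1.0 and 0.54, and that of all circles -0.26. The median was -0.54 for single-exon circles and -0.15 for longer ones. Positive log2 folds were held by 58 two-exon circles and negative ones by 76. All Nxt1 values lay above all WT values for 25 two-exon circles (18.7%, against 19.4% of all 335) and below them for 41 (30.6%, against 32.8%). These shares are near those of all circles. The shift depends on scaling to the library total. With the median log2 ratio over all circles set to 0, the two-exon median was 0.01, and 2 circles rose and 2 fell, against 3.88% rising and 2.39% falling among all. At an unadjusted p under 0.05 there were 28 two-exon circles (20.9%), against 22.7% of all. In rising order of library total, listed back-splice reads numbered 22325, 19064 and 13191 in Nxt1 and 27942, 33883 and 21750 in WT. They thus did not follow the totals, and a median set to 0 does not even out libraries within a genotype. Both called rises and CG43759 5-6 have a value from the lowest Nxt1 library, while CG6006 3-4 and Lsd-2 2-3 have none. How far folds depend on the 2 listed libraries was not tested.

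**Figure D4:**
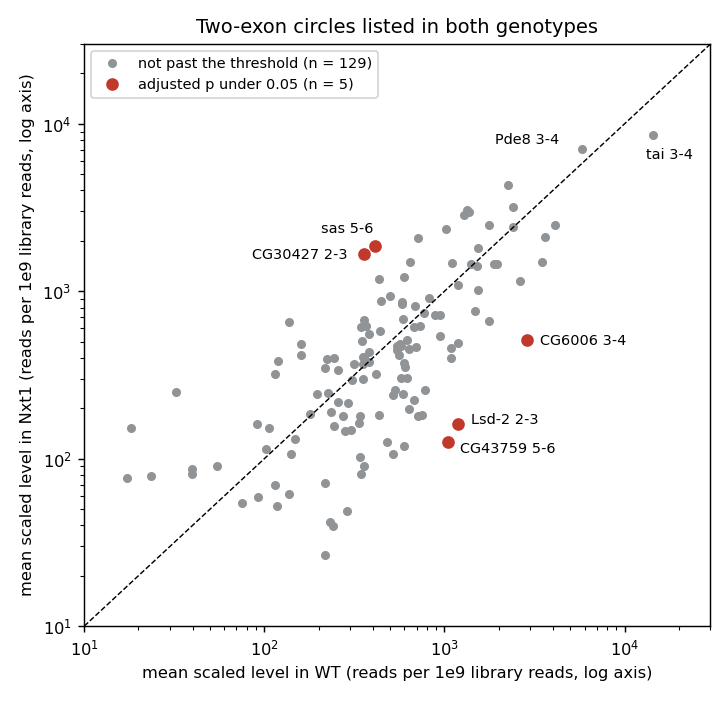
Mean scaled level in Nxt1 (vertical log axis) against that in WT (horizontal log axis), both in back-splice reads per 1e+09 library reads, for the 134 two-exon circles listed in both genotypes, with the 5 circles past the threshold in red and the dashed line marking equal levels. The called circles lie 4.50-fold or more from the line, at folds of 4.64 and 4.50 above it and 0.178, 0.136 and 0.128 below it.

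The rises were similar in size. CG30427 2-3 (host FBgn0043792) had 96 and 96 reads, or scaled levels of 1992 and 1346, in Nxt1 and 29 and 32 reads, or 368 and 347, in WT. Both Nxt1 values were several times the WT values (log2 fold 2.22, SE 0.524, edgeR adjusted p = 0.0135). Its host mRNA rose as well, to 24.5 ± 3.18 FPKM in Nxt1 against 12.6 ± 4.42 FPKM in WT (SD, n = 3 each, 1.94-fold on FPKM + 1, limma adjusted p = 0.0455). That call was lost with equal totals (0.0908) and without each M library but WT replicate 2 (0.0547 to 0.139). The gene sas encodes the cell surface protein Stranded at second. Its circle sas 5-6 had 95 and 125 reads, or 1972 and 1753, in Nxt1 and 30 and 31 reads, or 381 and 445, in WT (log2 fold 2.17, SE 0.492, edgeR adjusted p = 0.0106). Host mRNA of sas had 68.1 ± 8.77 FPKM in Nxt1 and 89 ± 13.7 FPKM in WT (SD, n = 3 each), a log2 fold of -0.38 that did not pass (limma adjusted p = 0.115).

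The falls were larger on the log scale. CG6006 3-4 had 28 and 48 reads, or 355 and 673, in Nxt1 and 217 and 277 reads, or 2753 and 3002, in WT (log2 fold -2.49, SE 0.442, edgeR adjusted p = 0.0019). Both Nxt1 values were below both WT values. CG6006 mRNA fell too, to 1.44 ± 0.211 FPKM in Nxt1 against 3.04 ± 0.746 FPKM in WT (SD, n = 3 each, limma adjusted p = 0.0281), a call lost without any Nxt1 replicate or WT replicate 1 (0.0666 to 0.0988). Lsd-2 encodes a perilipin on the surface of lipid droplets. Lsd-2 2-3 had 11 and 13 reads, or 139 and 182, in Nxt1 and 132 and 65 reads, or 1674 and 704, in WT (-2.88, SE 0.707, edgeR adjusted p = 0.0178). Its mRNA had 128 ± 8.20 FPKM in Nxt1 and 159 ± 32.3 FPKM in WT (SD, n = 3 each, limma adjusted p = 0.211). CG43759 5-6 had 2 and 15 reads, or 41.5 and 210.3, in Nxt1 and 91 and 65 reads, or 1154 and 933, in WT (-2.97, SE 0.825, edgeR adjusted p = 0.0385). Its mRNA had 16.7 ± 0.635 FPKM in Nxt1 and 19.2 ± 0.884 FPKM in WT (SD, n = 3 each, limma adjusted p = 0.103).

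Of the 5 calls, only that of CG6006 3-4 stayed past the threshold with each R library left out in turn, with a highest adjusted p of 0.0479. Without the middle WT library the edgeR adjusted p was 0.138 for sas 5-6, 0.0985 for CG30427 2-3, 0.392 for Lsd-2 2-3 and 0.293 for CG43759 5-6. The call of CG30427 2-3 was also lost without the lowest Nxt1 library (0.0798) and the highest WT library (0.0714). That of Lsd-2 2-3 was lost without the highest Nxt1 library (0.176). CG43759 5-6 was lost without the lowest Nxt1 library (0.081) or the lowest WT library (0.101), with the median ratio set to 0 (0.0514) and among circles of at least 10 reads (0.0634). No alternative run turned the direction of these 5. Each circle has values of 2 of the 3 R libraries, so some leave-out runs removed none of its own values. Circles with and without the omitted library were fitted apart, each set with its own estimate of the spread. Kept and lost calls therefore mix the loss of a library with a new spread. CG6006 3-4 has no value from the lowest Nxt1 library. Without that library its log2 fold stayed at -2.49, while its edgeR adjusted p was 7.15e-06.

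Several hosts gave more than one circle. Pde6, the gene of a cGMP phosphodiesterase, gave 3 two-exon circles besides others. Pde6 5-6 had scaled levels of 830.2 and 491 in Nxt1 and 1586 and 1951 in WT (log2 fold -1.43, edgeR adjusted p = 0.0953). Pde6 2-3 had 415 and 182 in Nxt1 and 266 and 444 in WT (-0.27, edgeR adjusted p = 0.859), and its sign was positive at 0.22 without the middle Nxt1 library and 0.15 without the highest WT library. Pde6 3-4 was listed in Nxt1 only, at 706 and 224. The single-exon circle Pde6 3-3 of the same transcript rose, with 4151 and 2649.8 in Nxt1 against 799 and 804 in WT (2.08, edgeR adjusted p = 0.00383). Pde6 mRNA had a log2 fold of 0.22 that did not pass (limma adjusted p = 0.242). For sas, the single-exon circle sas 3-3 had 436 and 379 in Nxt1 and 531 and 726 in WT (-0.63, edgeR adjusted p = 0.615), beside the rise of sas 5-6.

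The muscle gene tn, which encodes the TRIM32 relative Thin, gave 3 two-exon circles, none of them in both lists. The tn 5-6 circle was listed in Nxt1 only, at 101 and 14, while tn 4-5 (316 and 152) and tn 8-9 (115 and 10.8) were listed in WT only. All were far below the single-exon circle tn 7-7, which stood at 16188 and 17497 in Nxt1 and 23836 and 32572 in WT (log2 fold -0.74, edgeR adjusted p = 0.0931). The gene mbl, whose product Muscleblind favours circle formation from its own transcripts, gave mbl 5-6 in WT only, at 343 and 163. Its mRNA fell, with a log2 fold of -0.59 (limma adjusted p = 0.00881). The most abundant circle of the tables was stw 2-2, and stw had no two-exon circle.

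Across hosts, 39 pairs of a two-exon circle and another circle of the same gene, from 28 hosts, had values in both genotypes. In 22 of the 39 the log2 folds had the same sign, and in none did both pass the threshold. Some pairs share a circle, and few circles were called at all (3.73% of two-exon circles and 6.27% of all). Among 10 pairs of two-exon circles of one host the sign was the same in 4. Some hosts, chosen after their values were seen, had a called circle of another class beside a two-exon circle that did not pass. The single-exon circle Sarm 9-9 rose (log2 fold 5.39, edgeR adjusted p = 1.28e-06), while Sarm 3-4 was at -0.94 and Sarm 2-3 at 0.71. Src42A 2-2, from a Src family kinase gene, fell (-3.07, edgeR adjusted p = 0.0225), with Src42A 6-7 at -0.25. The circle mol 2-4 rose (2.59, edgeR adjusted p = 0.0019), with mol 4-5 at -0.64. Eip74EF 2-2, from an ecdysone-induced Ets factor gene, fell (-1.57, edgeR adjusted p = 0.0496), with Eip74EF 2-3 at -0.21. The differences between circles of one host were not tested.

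Some circles of one list were abundant. In WT only, CG12075 2-3 had 115 and 147 reads, or scaled levels of 1650.1 and 1593. The cation channel gene Trpm gave Trpm 3-4 at 1408 and 775, and the virus-induced gene vir-1 gave vir-1 3-4 at 939 and 746. Of the same vir-1 transcript, vir-1 2-4 fell, with 602 and 449 in Nxt1 against 2325 and 1983 in WT (log2 fold -2.04, edgeR adjusted p = 0.0109). The gene norpA, whose phospholipase C acts in phototransduction, gave norpA 3-4 in WT only, at 343 and 1148, and its mRNA rose (log2 fold 0.61, limma adjusted p = 0.00457). The highest circles of Nxt1 only were lower than these. They were Pde6 3-4, SNF4Agamma 5-6 (602 and 238), from the gene of an AMPK subunit, CG46319 2-3 (457 and 291) and Syb 2-3 (415 and 266), from the synaptobrevin gene. A level at or above the median of circles in both lists was held by 2 of 37 circles of Nxt1 only and 8 of 75 of WT only. Among circles of all sizes, set against the median of all circles in both lists, it was 9 of 132 and 15 of 262.

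For 10 hosts, one two-exon circle was listed in Nxt1 only and another in WT only. In 4 of them (CG46319, mys, Pgant9 and Scgdelta) the circles carried the same exon numbers under different transcripts. CG46319 2-3 thus stood at 457 and 291 in Nxt1 under one transcript and at 431 and 423 in WT under another. Whether such pairs are the same exons was not tested. In bt, grp, metro and Pvf3 the 2 circles shared 1 exon number, while in axo they shared none. Different numbers can also stand for the same exons where the transcripts differ, as the transcripts of the Pvf3 circles do. This was not tested either, and any such pair would count once in each one-genotype list. The tenth host was tn, given above.

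Hosts were also counted by gene lists that were chosen with earlier results of these data known. Such counts cannot show enrichment, and 210 of the 8923 genes tested for mRNA were hosts of two-exon circles. By the role of the host, of the 47 sarcomere and muscle structure genes found, 4 were hosts, of 8 two-exon circles, and none of the 8 was in both lists. Tm2 2-3, from a tropomyosin gene, was in WT only (273 and 184). The projectin gene bt gave bt 4-5 in Nxt1 only (208 and 14) and bt 3-4 in WT only (25.4 and 28.7), and the integrin gene mys gave mys 2-3 in Nxt1 (20.8 and 127) and in WT (14.3 and 21.7) under different transcripts. All 8 were under the median level of circles in both lists, as were 91.1% of all 112 two-exon circles of one list. Muscle genes outside that list of genes, named after their values were seen, also gave two-exon circles. Lmpt 4-5 was in WT only (254 and 629), and zormin 6-7 was in both lists (851 and 380 in Nxt1 and 545 and 813 in WT, log2 fold -0.16, edgeR adjusted p = 0.871). The mRNA of the sarcomere and muscle structure genes rose for 19 of 46 genes tested and fell for 2, against 12.5% rising and 9.10% falling among all genes (9 and 9 of 46 with equal totals, against 5.92% rising and 49.0% falling among all genes). Those that rose included bt (2.35-fold, limma adjusted p = 0.0172) and Tm2 (2.04-fold, 0.0465). Of the listed ion channel and calcium genes, 2 were hosts, both of circles in Nxt1 only. These were Cam 3-4 (41.5 and 322), from the calmodulin gene, and Stim 3-4 (41.5 and 12.7). Stim encodes a calcium sensor of the endoplasmic reticulum. Outside that list of genes, the cation channel gene Trpm gave Trpm 3-4 in WT only (1408 and 775). Of the listed RNA binding genes, 2 were hosts, of mbl 5-6 and msi 4-5 (12.7 and 229.6), both in WT only. The mRNA export helicase gene Dbp80, outside that list of genes, gave Dbp80 3-4 and Dbp80 4-5 in both genotypes, as given above.

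Regulatory genes gave both abundant and low circles. Among 84 transcription factor and chromatin genes found, 11 were hosts of 12 two-exon circles, 8 of them in both lists, with a median log2 fold of 0.09 and none called by edgeR. Besides tai 3-4 and foxo 3-4, they included sima 9-10 from the gene of the hypoxia factor alpha subunit, at means of 225 in Nxt1 and 679 in WT (-1.58, edgeR adjusted p = 0.25), and Mef2 2-3 from the muscle differentiation factor gene, at 114 in Nxt1 and 102 in WT (0.15, edgeR adjusted p = 0.941). Among 88 kinase, phosphatase and signalling genes, 10 were hosts of 11 two-exon circles, 6 in both lists, with a median of 0.39 and none called. The JNK phosphatase gene gave puc 2-3 at means of 2075 in Nxt1 and 714 in WT (1.52, edgeR adjusted p = 0.0911), and the ERK kinase gene gave rl 7-8 at 1215 in Nxt1 and 595 in WT (1.03, edgeR adjusted p = 0.24). The Notch ligand gene Serrate gave Ser 5-6 at 39.4 in Nxt1 and 241 in WT (-2.55, edgeR adjusted p = 0.21). The lists are small, and these medians stand beside -0.26 for all circles.

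Among 58 cytoskeleton, adhesion and polarity genes, 7 were hosts of 8 two-exon circles, 6 in both lists, with a median log2 fold of -0.77 and none called. The exchange factor gene trio gave trio 9-10 at means of 1176 in Nxt1 and 432 in WT (1.45, edgeR adjusted p = 0.134), while Myo10A 2-3, from a myosin gene, was at 459 in Nxt1 and 1088 in WT (-1.25, edgeR adjusted p = 0.235). Members lay on both sides of 0. Of 35 cuticle and epidermis genes, 5 were hosts of 6 two-exon circles, 4 in both lists (median -0.16, none called). They included serp 2-3 from a chitin deacetylase gene, at 403 in Nxt1 and 353 in WT (0.19, edgeR adjusted p = 0.877). The 40 metabolism and transport genes had a single two-exon circle, Lsd-2 2-3. Of 18 genes reported to act in the making, export or decay of circles, mbl was the only host of a two-exon circle. Of the 17 tested for mRNA, sbr (2.02-fold, limma adjusted p = 0.00143) and Ythdc1 (1.23-fold, 0.0214, but a log2 fold of -0.07 with equal totals, and the call lost without 5 of the 6 M libraries, 0.0526 to 0.0897) rose and mbl and Nxt1 fell, while Hel25E (0.976-fold, 0.718) and how (1.22-fold, 0.127) did not pass. That is 2 rising and 2 falling of 17, near the 21.6% called among all genes, and with equal totals 1 rose and 10 fell, against 54.9% called among all genes.

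The mRNA of the hosts changed about as often as that of other genes. Of the 215 hosts, 210 passed the filter of a mean of 1 FPKM, and 24 rose and 23 fell (22.4%), against 21.6% called among all 8923 genes tested, 12.5% rising and 9.10% falling. The median log2 fold was 0.01 for hosts and for all genes. With libraries scaled to equal totals, which moved the median of all genes to -0.32 and that of the hosts to -0.36, 8 hosts rose and 103 fell (52.9%), against 54.9% called among all genes. Among the named calls of host mRNA, those of mbl and norpA stayed past the threshold with each M library left out in turn, and that of Dbp80 was lost without 5 of the 6 (0.0583 to 0.110). Chosen after their values were seen, the largest host changes were a rise of Cda4, a chitin deacetylase gene (2.73-fold, limma adjusted p = 0.00932), and a fall of CG41520 (0.426-fold, limma adjusted p = 0.0141). Feature lengths behind the FPKM are out of order between genes, so mRNA levels of different hosts are not compared.

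Hosts were then divided by the list their circles were in. Hosts of circles in both lists had 12 rises and 10 falls among 124 tested (17.7%), with a median log2 fold of 0.01. Hosts of circles in Nxt1 only had 7 rises and 3 falls among 33 tested (30.3%), with a median of 0.17, and hosts of circles in WT only had 8 rises and 16 falls among 73 tested (32.9%), with a median of -0.17. The medians were on the side of the genotype that listed the circle. With equal totals the medians were -0.36, -0.20 and -0.54 in that order, so that of the Nxt1-only hosts changed sign while the order of the sets was kept. The difference between these sets was not tested, and a host can belong to several of them.

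Pre-mRNA of the hosts seldom passed the test, which had less power than that of mRNA. The M libraries held 664555 to 1307520 recovered pre-mRNA reads in Nxt1 and 1237133 to 1455766 in WT. On simulated data the pre-mRNA fit recovered 56% of 2-fold changes, against 100% for mRNA. Hosts without finite pre-mRNA values, or under a mean of 1 FPKM, were not tested. Of 148 hosts tested, 2 rose and 0 fell by limma (1.35%), against 1.48% among all 3576 genes (0.839% rising, 0.643% falling). At an unadjusted p under 0.05, limma gave 19 higher and 14 lower hosts of 148, against 8.53% higher and 8.31% lower among all genes. With edgeR on recovered reads, 8 of 147 hosts rose and 4 fell (8.16%), against 8.22% called among all 2529 genes (4.47% rising, 3.76% falling). The rises, named after their values were seen, were those of l(2)41Ab (121 ± 11.7 FPKM in Nxt1 against 24.7 ± 2.22 FPKM in WT, SD, n = 3 each, limma adjusted p = 0.00604) and the lipid phosphatase gene wun (30.0 ± 1.14 FPKM in Nxt1 against 10.5 ± 2.29 FPKM in WT, SD, n = 3 each, limma adjusted p = 0.0491). Their circles were low or did not pass. The l(2)41Ab 2-3 circle was listed in Nxt1 only at 20.8 and 127, and wun 3-4 had 481 and 126 in Nxt1 and 799 and 344 in WT (edgeR adjusted p = 0.532). In wun, whose mRNA also rose (2.14-fold, limma adjusted p = 0.0173), the circle's log2 fold was -0.91.

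Circle changes were set beside those of the host mRNA. Over the 134 circles with a host value, Pearson's r of both log2 folds was 0.16 and Spearman's rho 0.18, a description over circles that share their libraries. The signs were the same for 73 circles. Both were positive for 35 and both negative for 38, while 23 circles were positive with a negative host and 38 negative with a positive host. Over 333 circles of all sizes, r was 0.09, rho 0.13 and the signs were the same for 187, a similar share. Circle folds spread more widely than host folds, with an SD of 1.21 for circles and 0.386 for hosts on the log2 scale. Over circles of all sizes the SDs were 1.32 and 0.402. These SDs are of unlike measures. Circle folds rest on 2 libraries of a genotype and often few reads, host folds on 3 libraries and FPKM + 1. The part of counting error in the spread and in the correlation was not tested.

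**Figure D5:**
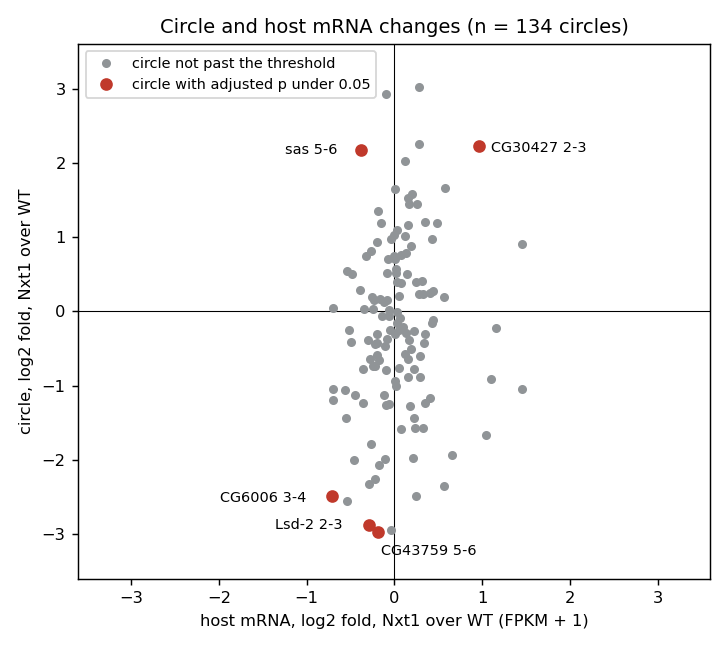
Log2 fold of the circle, Nxt1 over WT (vertical axis), against the log2 fold of its host mRNA on FPKM + 1 (horizontal axis, same range) for 134 two-exon circles, with the 5 called circles in red and named. Hosts cluster around 0 while circles spread above and below it (SD 1.21 for circles and 0.386 for hosts). Circle folds rest on fewer libraries and often few reads, so part of their spread may be counting error, which was not tested.

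The difference between the circle change and the host mRNA change was tested in one limma fit of circle and mRNA values. It called 8 circles that were higher than their host change and 17 that were lower, of 134, against 22.2% of 333 circles of all sizes (6.91% higher, 15.3% lower). On simulated data, however, that fit called too many unchanged circles, and a fit with the spread weighted by kind of library was therefore added after the data were seen. On simulated data the weighted fit called fewer unchanged circles but was not free of such calls. In the weighted fit 0 were higher and 1 was lower, against 3.00% of all circles (0.901% higher, 2.10% lower). The split also depended on scaling, with 9 higher and 6 lower at a median circle ratio of 0 (8.71% and 9.01% of all circles) and 12 higher and 5 lower at equal mRNA totals (10.2% and 7.21% of all circles). The one circle past the threshold of both fits was CG43759 5-6, at -3.11 (SE 0.712, limma adjusted p = 0.018, weighted 0.0455). It also passed under each other alternative of this test.

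Among the other large differences, that of sas 5-6 was 2.54 (SE 0.321, limma adjusted p = 0.00128), and it passed under each alternative but the weighted one (0.0843). The receptor tyrosine phosphatase gene Ptp4E gave Ptp4E 3-4 at 560.4 and 743 in Nxt1 and 165 and 108 in WT, 1.95 above its host change (limma adjusted p = 0.0147, weighted 0.141). CG13375 2-3 had 104 and 203 in Nxt1 and 25.4 and 10.8 in WT, on 1 to 16 reads a library, a difference of 2.48 (limma adjusted p = 0.0321, weighted 0.175). Punt, a receptor of TGF-beta type ligands, is encoded by put, and put 2-3 had 101 and 56.1 in Nxt1 and 14.3 and 32.5 in WT, a difference of 1.52 (limma adjusted p = 0.0484, weighted 0.182). The host mRNA of these 4 did not pass the test.

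Of the 17 circles below their host change, the host mRNA rose for 4 (Ac76E 10-11, CG11155 2-3, Xrp1 2-3 and obst-B 3-4), fell for 2 (CG6006 3-4 and Ser 5-6) and did not pass for 11. For the 8 circles above their host change, the host mRNA passed in none. Among all 124 hosts of two-exon circles in both lists, 12 rose and 10 fell (17.7%). The host change is part of the difference, so the most negative differences favour hosts that rose, and the circles that follow were taken by the size of the difference. CG11155 2-3 had 20.8 and 63.3 in Nxt1 and 228 and 238 in WT, with a host log2 fold of 0.56 and a difference of -2.92 (limma adjusted p = 0.00723, weighted 0.0602). The chitin-binding gene obst-B gave obst-B 3-4 at 139 and 42.1 in Nxt1 and 488 and 228 in WT, with a host log2 fold of 0.66 and a difference of -2.66 (limma adjusted p = 0.0234, weighted 0.131). The adenylyl cyclase gene Ac76E gave Ac76E 10-11 at 166 and 228 in Nxt1 and 343 and 933 in WT, with a host log2 fold of 1.04 and a difference of -2.54 (limma adjusted p = 0.0147, weighted 0.157). In all 3 the Nxt1 circle values lay below the WT values while the host mRNA passed the threshold as a rise, and none passed the weighted fit. The rises of CG11155 and obst-B mRNA were lost with equal totals (limma adjusted p = 0.242 and 0.151), and each of the 3 was lost without at least 3 of the 6 M libraries in turn (0.0517 to 0.110).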

How the data were processed

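Total RNA of larval carcasses was treated with RNase R or mock-treated with water, and libraries depleted of rRNA by a stranded kit were read in pairs of 75 bases, per the labels' protocols. The letters M and R in the sample titles were taken to mean mock and RNase R. Tools listed without roles in the submitters' processing notes are STAR 2.5.3a, Trimmomatic 0.36, featureCounts 1.6.2, Subread and DESeq2. The genome build, the circle caller and the rule for listing a circle were not given in the sources used here, so no sequences or coordinates are printed.

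The authors deposited a count of back-splice reads per circle, per the file headers, beside the same count scaled by library, a signal that the authors' header calls BPM and that follows 1e+09 library reads. Each value was tied to a library through the total it implies. The deposited mRNA and pre-mRNA values are FPKM, per the labels. Host symbols came from RefSeq transcripts (all 729 matched, Release 6 plus ISO1 MT, names only).

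Members and gene lists were chosen with earlier results of these data known. Circles were tested with edgeR 4.0.16 (quasi-likelihood, offsets from library totals, 335 circles in both lists), in R 4.3.3. Host mRNA and pre-mRNA used limma 3.58.1 on log2(FPKM + 1), for genes of mean FPKM of at least 1. The circle change minus host change was tested with limma in one fit of 4 groups, with 0.5 reads added to circles. The p-values were adjusted over all features by Benjamini-Hochberg. Fits were tested on simulated data. Alternatives were other scalings, filters, pseudocounts, DESeq2 1.42.0, edgeR on whole reads recovered from the FPKM (all 15293 mRNA genes with reads, tolerance 0.01), a replicate block and leaving out each library. Named circles are the 10 most abundant in both lists, all called ones, the 4 highest of each one-genotype list, those of hosts with at least 3, the 4 largest differences from the host each way, and those of mbl, stw and tn.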

Additional observations from a re-analysis of the deposited data

How the results depend on the processing

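Depth limits the circle results, since many circles rest on a few reads in 2 libraries. At least 20 reads on average left 85 two-exon circles listed in Nxt1 and 124 in WT. The difference in two-exon share ranged from -0.39 to 1.42 percentage points with a library left out, the negative value without the Nxt1 R library with the middle total. Two-exon circles called by edgeR ranged from 2 to 12 with a library left out. Host mRNA calls numbered 111 with equal totals and 12 with the replicate block, and 16 to 78 with a library left out (78 without WT replicate 3, 38 without WT replicate 2 and 16 to 20 without any other). Host pre-mRNA calls numbered 1 with no filter, 1 with equal totals, 12 by edgeR on recovered reads and 0 with the replicate block, where limma gave 25 of 148 hosts at an unadjusted p under 0.05, against 14.2% of all genes. They ranged from 0 to 5 with a library left out, 0 without Nxt1 replicate 2 (28 at an unadjusted p under 0.05, against 14.7% of all genes) and 5 without WT replicate 3. Differences from host mRNA numbered 1 with the spread weighted by kind of library, 15 with the median circle ratio set to 0 and 8 by separate fits. They ranged from 5 to 39 with a library left out, 5 to 13 without an M library and 26 to 39 without an R library. In the edgeR runs without an R library, circles with and without that library were fitted apart, so the spread was also estimated anew. The cause of these moves was not tested.

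No paired analysis was possible for circles because the R libraries carry no replicate number in the tables. For hosts the replicate block lowered the mRNA count to 12. Same-numbered M libraries deviated from their genotype means with r across genes of -0.081, -0.123 and -0.286 for mRNA and 0.007, 0.036 and 0.004 for pre-mRNA. The labels name no block beyond the number, and these few correlations cannot decide whether same-numbered libraries shared a preparation.

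Some log2 folds close to 0 changed sign. Those of circles were Mrtf 2-3 (-0.23), RtGEF 6-7 (-0.11 and -0.22) and Pde6 2-3 (0.22 and 0.15), each with an R library left out. Over all R libraries left out in turn they ranged from -0.23 to 0.83, from -0.22 to 0.30 and from -0.96 to 0.22 in that order. With equal totals, host mRNA log2 folds turned negative for tai (-0.33), Mrtf (-0.10), a (-0.31), Pde6 (-0.12), SNF4Agamma (-0.11), CG46319 (-0.02), Syb (-0.20), CG12075 (-0.25), Trpm (-0.12), Ptp4E (-0.07) and put (-0.36), as did those of Ythdc1 (-0.07) and how (-0.09) mRNA. By edgeR on recovered reads they were -0.02 for tai, -0.00 for a and -0.03 for put. With an M library left out, signs changed for tai (range -0.13 to 0.19), RtGEF (to 0.01), a (-0.08 to 0.14) and put (-0.01 to 0.03). The cause was not tested. Of the remaining alternatives for single circles and genes, 712 kept direction and side of the threshold, 104 fell short of it and 20 newly passed it.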
